A study of Mus musculus with 15 samples.

Results

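The response to loss of Phf6 was compared between 2 preparations of the mouse foetal cortex, the whole cortex and neurons grown from it. PHF6 is a nuclear protein with PHD-like zinc fingers that binds chromatin and ribosomal DNA, and its gene on the X chromosome is mutated in Börjeson-Forssman-Lehmann syndrome, an intellectual disability syndrome with endocrine features. The foetal cortex mixes dividing radial glia, migrating neurons, interneurons that arrive from the ganglionic eminences, vessels and meninges, whereas a culture of dissociated cortical cells keeps mainly the young neurons. The same deletion can therefore be read in a tissue and in a preparation enriched for 1 of its cell classes, and the question is which genes respond differently.

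All 15 libraries of the series were used, 8 from cortex and 7 from neurons, all from male C57BL/6 foetuses. The cortices were taken at E15.5 from 3 Phf6+/Y controls and 5 Phf6-/Y foetuses, in which the floxed exons 4 and 5 of Phf6 had been removed in the germline, so that every cell of the tissue lacked them. The cortical neurons were prepared at E16.5 and kept in culture for a day, from 3 Phf6+/Y;Nes-cre Tg/+ controls and 4 Phf6lox/Y;Nes-cre Tg/+ foetuses, in which Cre, under the Nestin promoter and enhancer, acts in neural precursors and in the cells they give rise to. Control neurons thus carried the transgene as well, and control cortices did not. Stage, culture, way of deletion and transgene all changed together between the preparations, so their parts in any difference cannot be told apart. The cortices came from litters 1 to 3, the neurons from litters 4 to 7, and litter 7 held 1 deleted culture and no control, which adds nothing to a genotype difference taken within litters. The summed counts per library lay between 16858007 and 31157700.

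Values are in CPM, the reads of a gene scaled to a common library size. The response of a gene is its log2 fold change, deleted against control, within litters. The difference of response is the response in neurons minus the response in cortex, so a positive value means that the gene rose more, or fell less, in neurons. It was tested for the 13729 genes with enough reads in both preparations by edgeR's quasi-likelihood test in 1 fit of all libraries, and genes with a Benjamini-Hochberg false discovery rate (FDR) below 0.05 are those called. Fewer cells of a type and less RNA per cell cannot be told apart in these bulk libraries.

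Both preparations held the markers their labels imply. Dcx, which encodes doublecortin of migrating neurons, lay between 1300 and 2019 CPM in cortices and between 2611 and 3394 CPM in neuron cultures. The cortical transcription factor genes Emx1, Neurod6 and Tbr1 were present in every library, Emx1 as the lowest of them at 37.8 CPM or more. Genes of vessel walls summed to 377 to 765 CPM in cortices and 37.2 to 54.9 CPM in cultures, and red cell genes to 196 to 522 CPM in cortices and 15.6 to 38.7 CPM in cultures. Some other lists were reduced less in cultures. Microglia and macrophage genes summed to 74.8 to 165 CPM in cortices and 51.9 to 83.5 CPM in cultures. Meningeal fibroblast and collagen genes summed to 462 to 1628 CPM in cortices and 355 to 460 CPM in cultures. For radial glia genes the sums were 3500 to 3960 CPM and 1611 to 2066 CPM. The astrocyte gene Gfap was higher in cultures, with means of 16.0 CPM in control cultures and 1.06 CPM in control cortices. One library stood apart. Replicate 1 of the Phf6-/Y cortices, from litter 3, had 283 CPM of Neurod6, a gene of cortical excitatory neurons, against 496 to 638 CPM in control cortices and a median of 535 CPM over the deleted ones, and the calls that end without it are named beside the results. Leaving it out also leaves litter 3 with no pair. Among the cultures, those of litters 4 and 7 held more reads of Zic and ganglionic eminence genes than those of litters 5 and 6, described below.

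Phf6 itself (Entrez gene 70998, chromosome X of GRCm38, 52912214 to 52956961) was lower in every deleted sample than in any control of its preparation. In cortex it stood at 178, 150 and 192 CPM in controls and at 42.8, 53, 47.4, 42.9 and 55.5 CPM in Phf6-/Y samples. In neurons it stood at 258, 226 and 252 CPM in controls and at 71.2, 85.4, 59.6 and 64.8 CPM in deleted cultures.  The log2 fold change of Phf6 was -1.85 (standard error 0.0995) in cortex and -1.82 (standard error 0.114) in neurons, and their difference was 0.03 with a 95% interval from -0.30 to 0.35. The counts cover the whole gene, so reads on the deleted exons were not separated from the rest.

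The response of 4 genes differed between neurons and cortex. Sst and Nr4a2 rose in neurons and did not pass the test in cortex, and their response was higher in neurons. Lhx8 and Onecut2 rose in cortex, and their response was lower in neurons, where Lhx8 fell and Onecut2 did not pass the test. Each direction thus held 2 called genes, or 0.0146% of the 13729 genes each way. At an unadjusted p below 0.05 the difference was positive for 312 genes (2.27%) and negative for 409 (2.98%). The median gene had a difference of -0.0026, and the median standard error of a difference was 0.150 on the log2 scale, against 0.0996 for a response in cortex and 0.112 in neurons.

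TGACG is the core of the cAMP response element, the DNA site of the activity-responsive factor CREB. Because Sst and Nr4a2 are the genes whose response was higher in neurons, the stretch of each promoter in which matches to TGACG lie closest together is shown here, with the matches on either strand in capitals.
Sst, 59 to 30 bases before the start, chr16:23890874-23890903, minus strand: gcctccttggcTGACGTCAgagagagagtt
Nr4a2, 129 to 100 bases before the start, chr2:57124103-57124132, minus strand: ccgggcTGACGgggccgcTGACGcgcttgg
The sequences are from RefSeq on GRCm38.p6. For Sst the start is that of the RefSeq promoter table, at 23890844, which lies inside the full extent of the gene given below, whose longest form begins at 23891342. In the window from 250 bases before to 50 after the start, Sst held 2 overlapping matches to TGACG, one on each strand, and Nr4a2 held 4, at 200, 144, 123 and 111 bases before the start. Lhx8 held none in its window, nor any of the other motifs searched, TATAAA (the TATA box), CACGTG (an E-box) and GAAANNGAA (the core of the interferon-stimulated response element). Nr4a2 also held 1 match to TATAAA and Sst 1 to GAAANNGAA. The promoter of Onecut2 is not described here, so Lhx8 alone stands for the called genes with a lower response in neurons. Over 32851 single promoters of the same length, TGACG on either strand occurred in 20.8%, TATAAA in 13.6%, CACGTG in 7.15% and GAAANNGAA in 8.56%. Counted by gene, 3834 of the 10937 genes tested that had a promoter sequence held TGACG in any of their promoters, or 35.1%. A match of letters is a description and not a bound site.

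Sst (Entrez gene 20604, chromosome 16, 23889573 to 23891342) encodes somatostatin, the peptide of a class of cortical interneurons born in the medial ganglionic eminence. In neurons it stood at 12.8, 34.6 and 24.9 CPM in controls and at 44.0, 24.4, 74.2 and 40.9 CPM in deleted cultures. The 2 ranges overlapped, but within each of litters 4, 5 and 6 the deleted culture was the higher, by 0.93, 1.10 and 0.71 on the log2 scale. In cortex Sst stood at 51.5, 64.7 and 46.8 CPM in controls and at 38.5, 48.5, 60.5, 36.8 and 48.8 CPM in deleted samples, and the differences within litters 1, 2 and 3 were -0.14, -0.26 and -0.42. The response was 0.92 (standard error 0.120, FDR = 0.00343) in neurons and -0.25 (standard error 0.103, FDR = 0.333) in cortex. The difference of response was 1.17 (standard error 0.158, 95% interval 0.84 to 1.502, FDR = 0.0154). Without replicate 1 of the Phf6-/Y cortices Sst kept a difference of 1.11 (FDR = 0.0400), and without both libraries of litter 4 it was 1.16 (FDR = 0.0785).

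Nr4a2 (Entrez gene 18227, chromosome 2, 57106830 to 57124003) encodes an orphan nuclear receptor, a rapid activity-response gene and a marker of subplate and deep-layer neurons. Control neurons held 16.9, 24.1 and 28.9 CPM, and deleted neurons held 38.4, 32.9, 46.3 and 47.1 CPM, so that every deleted culture lay above every control. In cortex the values were nearly level, at 33.5, 31.0 and 33.2 CPM in controls and 34.9, 37.8, 34.7, 36.7 and 34.0 CPM in deleted samples. The response of Nr4a2 was 0.87 (standard error 0.0934, FDR = 2.34e-04) in neurons and 0.13 (standard error 0.0830, FDR = 0.577) in cortex. The difference was 0.74 (standard error 0.124, 95% interval 0.48 to 1.00, FDR = 0.0482), close to the threshold. With any 1 of the 15 libraries left out, the difference of Nr4a2 lay between 0.69 and 0.82 and its FDR was above 0.05.

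Lhx8 (Entrez gene 16875, chromosome 3, 154306288 to 154330560) encodes a LIM-homeodomain factor of the medial ganglionic eminence and of forebrain cholinergic neurons. Control cortices held 22.8, 10.5 and 10.5 CPM and deleted cortices 27.1, 21.1, 21.2, 22.5 and 18.8 CPM. The high control was the one of litter 3, and within litters 1, 2 and 3 the difference was 0.97, 1.01 and 0.25. In neurons Lhx8 was scarce. Control cultures had 151, 12 and 3 reads (5.51, 0.551 and 0.131 CPM), and deleted cultures had 32, 54, 3 and 0 reads (1.57, 1.98, 0.190 and 0 CPM). The response of Lhx8 was 0.78 (standard error 0.156, FDR = 0.0280) in cortex and -1.53 (standard error 0.313, FDR = 0.0496) in neurons, and the difference was -2.31 (standard error 0.349, 95% interval -3.05 to -1.57, FDR = 0.0259). The culture pair of litter 4 held the 151 control reads and 54 of the deleted ones, and without litter 4 the difference of Lhx8 was -2.65 with a standard error of 0.791 (FDR = 0.876).

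Onecut2 (Entrez gene 225631, chromosome 18, 64340032 to 64398488) encodes a cut-homeobox factor of developing neurons outside the dorsal cortex. Control cortices held 13.7, 7.23 and 9.78 CPM, and deleted cortices held 36.9, 15.3, 14.1, 14.9 and 15.0 CPM. Every deleted cortex lay above every control, and replicate 1 lay far above the other 4. Control neurons held 10.8, 7.94 and 10.2 CPM and deleted neurons 6.17, 8.79, 6.46 and 8.22 CPM, and the differences within litters 4, 5 and 6 were -0.29, -0.30 and -0.31. The response of Onecut2 was 0.99 (standard error 0.139, FDR = 0.00329) in cortex and -0.30 (standard error 0.158, FDR = 0.655) in neurons, with a difference of -1.29 (standard error 0.210, 95% interval -1.73 to -0.85, FDR = 0.0434). Without replicate 1 of the Phf6-/Y cortices its response in cortex was 0.81 (FDR = 0.0515) and the difference of Onecut2 was -1.11 (FDR = 0.238).

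**Figure D1:**
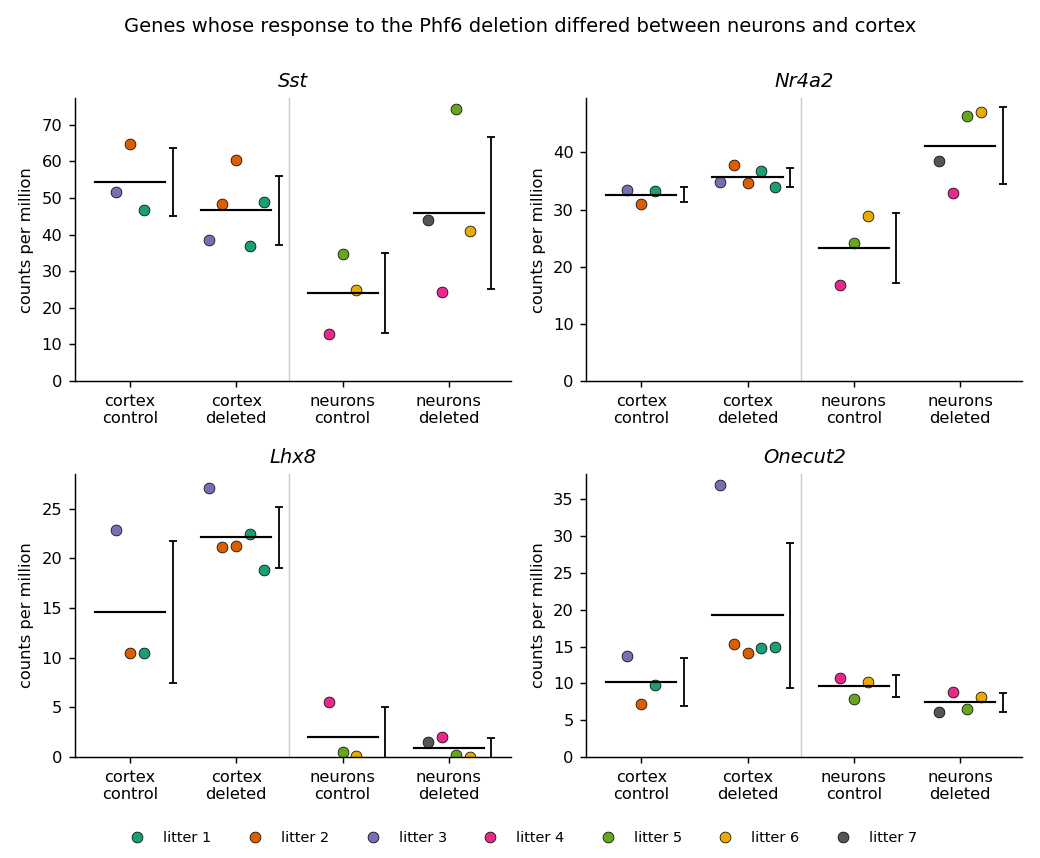
CPM (vertical axes, from 0) of Sst, Nr4a2, Lhx8 and Onecut2 in each of the 15 libraries, by preparation and genotype, with points coloured by litter, a line at the group mean and beside it a bar of 1 SD each way, which is cut off at 0 for Lhx8 in neurons. Deleted neurons lie at 32.9 to 47.1 CPM for Nr4a2 against 16.9 to 28.9 CPM in control neurons, and the deleted cortex of litter 3 lies at 36.9 CPM for Onecut2.

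Below these 4 genes, differences of similar or larger size did not pass the FDR threshold. On the side with a higher response in neurons, Radx, whose protein binds single-stranded DNA at replication forks, had a difference of 2.92 (standard error 0.646, FDR = 0.397). Radx was at 0.146, 0.0459 and 0.0872 CPM in control neurons, which is 4, 1 and 2 reads, and at 0.539, 1.2, 0.570 and 0.430 CPM in deleted neurons. Its response in neurons was 2.90 (FDR = 0.0356, and 0.470 without litter 4), while cortices of both genotypes held 1.31 to 2.36 CPM. Nme5, a gene of motile cilia, moved likewise at a low level, with a difference of 2.40 (standard error 0.617, FDR = 0.573) and 0.229 to 0.305 CPM in control neurons against 0.823 to 1.28 CPM in deleted ones. In neurons both genes reached the low-count filter through the deleted cultures, where they are higher, so their size is no independent support.

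Other genes on this side had more reads. Ndnf, a secreted factor of Cajal-Retzius cells and of layer 1 interneurons, rose in neurons by 1.25 (standard error 0.185, FDR = 0.00523), from 3.54, 8.53 and 9.11 CPM to 14.7, 11.7, 17.3 and 18.8 CPM, with no overlap. Its response in cortex was 0.31 (FDR = 0.489) and the difference 0.94 (FDR = 0.573). Reln, which encodes the extracellular guidance protein reelin made by Cajal-Retzius cells, rose in neurons by 0.81 (FDR = 0.0166), with a response of 0.22 in cortex (FDR = 0.455) and a difference of 0.59 (FDR = 0.631). The cortex value of Reln rests on replicate 1 of the Phf6-/Y cortices, at 187 CPM against 304 to 357 CPM in the other 4. Without that library Reln rose in cortex by 0.42 (FDR = 0.0116), and its difference was 0.39 (FDR = 0.597). Without litter 4 the neuron responses of Ndnf and Reln were 1.03 (FDR = 0.158) and 0.76 (FDR = 0.234). Ccbe1, an extracellular matrix gene of lymphatic development, fell in cortex by 0.75 (FDR = 6.01e-04) and had a response of -0.21 in neurons (FDR = 0.467), a difference of 0.54 (FDR = 0.397). The circadian repressor gene Nr1d1 had a difference of 0.39 (FDR = 0.573).

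On the side with a lower response in neurons stood Hap1, Spon1, Zfhx3 and Iqsec3. Hap1, whose protein binds huntingtin and which is high in the hypothalamus, had a response of 0.33 in cortex (FDR = 0.0814) and -0.39 in neurons (FDR = 0.197), a difference of -0.72 (standard error 0.134, FDR = 0.120). Its 3 neuron litters gave -0.36, -0.43 and -0.39 and its 3 cortex litters 0.07, 0.43 and 0.55. Spon1, which encodes the axon guidance protein F-spondin, rose in cortex by 0.63 (FDR = 0.0430) and had a difference of -1.08 (standard error 0.218, FDR = 0.260). Zfhx3, a transcription factor of striatal and hypothalamic neurons, rose in cortex by 0.82 (FDR = 0.0102), from 41, 27.7 and 25.7 CPM to 91.4, 42.1, 44.4, 50.3 and 34.5 CPM. The difference of Zfhx3 was -1.15 (standard error 0.252, FDR = 0.397). Iqsec3, an Arf exchange factor of inhibitory synapses, rose in cortex by 0.44 (FDR = 0.0223), with a response of -0.16 in neurons (FDR = 0.726) and a difference of -0.60 (FDR = 0.384). The rises of Spon1, Zfhx3 and Iqsec3 in cortex were not called without replicate 1 of the Phf6-/Y cortices, where Spon1 had 0.43 (FDR = 0.304), Zfhx3 0.68 (FDR = 0.0734) and Iqsec3 0.41 (FDR = 0.155).

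Some genes moved in both preparations. Apart from Phf6, 83 genes were called in cortex and 34 in neurons, 8 of them in both. With Phf6 counted among the genes that fell, the calls in cortex were 68 upregulated (0.495% of the genes tested) and 16 downregulated (0.117%), and those in neurons were 21 upregulated (0.153%) and 14 downregulated (0.102%). At an unadjusted p below 0.05 the shares were 6.53% and 5.3% in cortex and 4.28% and 4.07% in neurons. Of the 83 genes called in cortex, 45 had a difference of response at an unadjusted p below 0.05. The difference was called for 2 of the 83, Lhx8 and Onecut2. The median response of the 83, in the direction of the cortex call, was 0.55 in cortex and 0.20 in neurons. Of the 34 genes called in neurons, 20 had a difference at an unadjusted p below 0.05. The difference was called for 3 of the 34, Sst, Nr4a2 and Lhx8. The medians of the 34 were 0.57 in neurons and 0.24 in cortex. These genes were picked by their response in 1 preparation, which is itself part of the difference. Neither the counts of genes with a difference nor the medians therefore measure how far the responses differ. The calls in cortex were 12 up and 3 down without replicate 1 of the Phf6-/Y cortices. Without litter 4 those in neurons were 1 up and 1 down, Nr4a2 and Phf6, so every other call in neurons named here ends without that litter.

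The 8 genes called in both were Peg10, Zdbf2, Phip, Pgap1, Atp1b1, Rasgrf2, Ldhb and Lhx8. All but Lhx8 moved the same way, and of these 7 only Ldhb fell. Without replicate 1 of the Phf6-/Y cortices Phip (FDR = 0.0769), Atp1b1 (FDR = 0.0897) and Rasgrf2 (FDR = 0.114) were not called in cortex, with responses of 0.39, 0.35 and 0.71, and the other 5 were. Peg10, an imprinted gene derived from a retrotransposon, stood at 289, 148 and 172 CPM in control cortices and 525, 301, 318, 284 and 254 CPM in deleted ones, and at 71.3, 43.4 and 46.7 CPM in control neurons and 96.5, 101, 68.7 and 67.4 CPM in deleted ones. It rose by 0.86 in cortex (FDR = 9.36e-06) and by 0.56 in neurons (FDR = 0.00523). The difference of Peg10 was -0.29 with a 95% interval from -0.53 to -0.06, which does not span 0, at an FDR of 0.878. Zdbf2, another imprinted gene, rose by 0.72 (FDR = 6.01e-04) and 0.63 (FDR = 0.00686), and its difference was -0.10 (95% interval -0.37 to 0.17).

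Phip, which encodes a bromodomain protein of a ubiquitin ligase complex and is itself an intellectual disability gene, rose by 0.41 in cortex (FDR = 0.0126) and by 0.52 in neurons (FDR = 0.00523). Cortices went from 171, 184 and 208 CPM to 237, 229, 235, 260 and 306 CPM. Neurons went from 181, 133 and 184 CPM to 184, 277, 208 and 227 CPM, and the culture at 184 CPM is that of litter 7. The difference of Phip was 0.11 (95% interval -0.11 to 0.33). Pgap1, an enzyme that remodels the lipid anchor of GPI-linked proteins, rose by 0.39 (FDR = 0.0124) and 0.36 (FDR = 0.0412), with the narrowest interval of these genes, -0.23 to 0.17 about a difference of -0.03. Atp1b1, a sodium pump subunit, had a difference of 0.10 (95% interval -0.11 to 0.31), Rasgrf2, a Ras exchange factor, one of 0.03 (95% interval -0.38 to 0.44), and Ldhb, a lactate dehydrogenase subunit that fell by 0.44 in cortex (FDR = 0.0102) and by 0.40 in neurons (FDR = 0.0398), one of 0.04 (95% interval -0.19 to 0.26). Atp1b1, Rasgrf2 and Ldhb were named after their values had been seen.

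**Figure D2:**
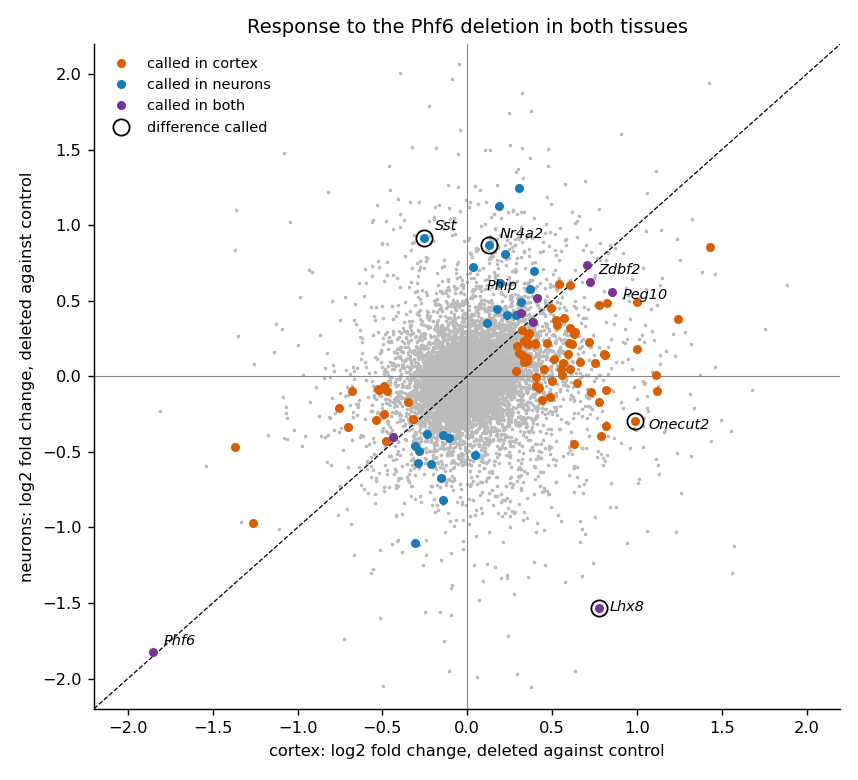
Response in neurons (vertical axis) against response in cortex (horizontal axis), as log2 fold changes, for the genes tested, with the diagonal of equal response dashed and 7 genes outside the axes not shown. Coloured points are genes called in cortex, in neurons or in both, and circles mark the 4 genes whose difference was called, which lie off the diagonal, while Zdbf2 and Phip lie near it and Phf6 lies close to it at -1.85 and -1.82.

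Within litters the direction of a difference can be read sample by sample. In Sst, Nr4a2, Radx and Ndnf, all 3 neuron litters lay above all 3 cortex litters. Over all genes tested this held for 769 (5.6%), and the opposite, as in Lhx8, Onecut2, Hap1, Spon1, Zfhx3, Iqsec3, Nap1l5 and Peg3, for 786 (5.73%). The genes named here were picked for a small p of the difference, or of a response that is part of it. Their separation by litter is therefore no independent support. The count of such genes is a description, and a gene with small scatter in both preparations can enter it with a small difference.

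**Figure D3:**
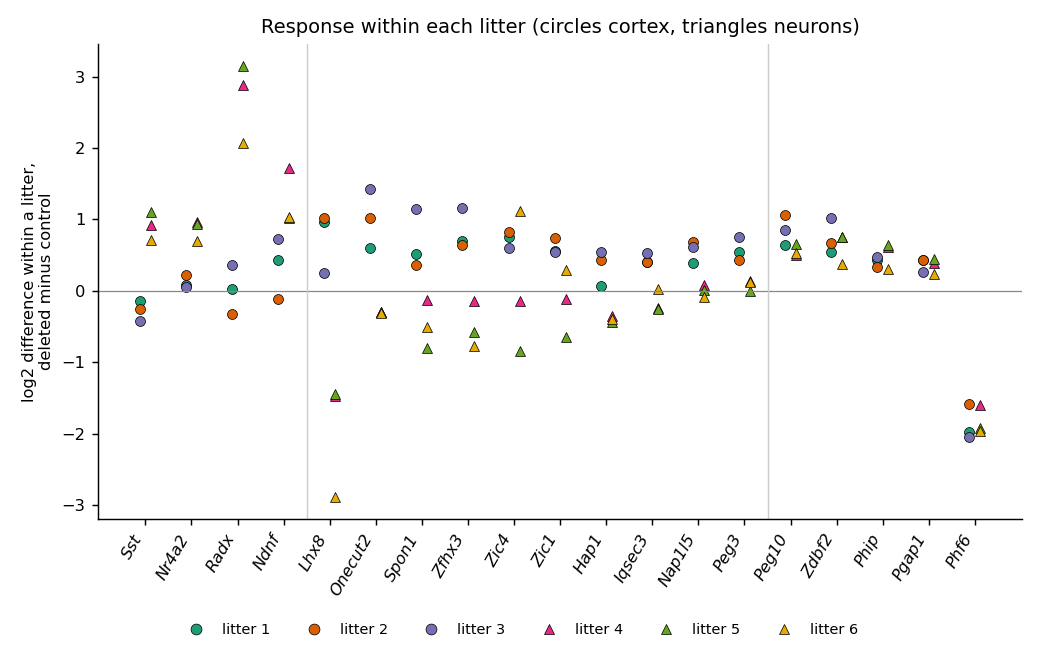
Log2 difference within each litter, deleted minus control (vertical axis), for 19 genes, with circles for cortex litters 1 to 3 and triangles for neuron litters 4 to 6, each with its own colour. The 4 genes on the left have neuron litters above cortex litters, the 10 in the middle lie lower in neurons by the fitted difference, and the 5 on the right have overlapping or nearly overlapping litters.

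Gene groups were then read for how many of their members had a difference at an unadjusted p below 0.05, to be set against the 2.27% and 2.98% of all genes. Immediate-early and activity-regulated genes, which neurons transcribe within minutes of stimulation, had 33 members tested. Their differences were positive in 28 and negative in 5, with 6 at an unadjusted p below 0.05, all higher in neurons, and 1 called, Nr4a2. The group median was 0.24 for the difference, -0.02 in cortex and 0.24 in neurons, against -0.0026, 0.0021 and 0.0014 over all genes. After Nr4a2 came genes of the AP-1 transcription factor and a companion of them. Junb had a difference of 0.99 (FDR = 0.667), at 2.81, 5.78 and 3.97 CPM in control neurons and 10.1, 4.18, 8.55 and 6.16 CPM in deleted ones. Jun had 0.37 (FDR = 0.694), Ier2 0.49 (FDR = 0.736), Fos 0.88 (FDR = 0.936) and Jund 0.29 (FDR = 0.939), and these 4 were named after their values had been seen. Each combined a negative response in cortex with a positive one in neurons, none of which was called. The cortex responses of Junb, Jun, Ier2 and Jund were most negative in litter 3, for Junb -0.98 against -0.10 and -0.28. Fos was scarce in cortex, with means of 1.04 CPM in controls and 0.79 CPM in deleted samples. Of the group's 26 genes with a promoter sequence, 18 held TGACG in any of their promoters, or 69.2%. Of all genes tested it was 3834 of 10937, or 35.1%, a description with no test. Without replicate 1 of the Phf6-/Y cortices, 5 members were higher and 0 lower, and without litter 4, 6 and 0. Without that replicate the group median was 0.17 for the difference and 0.04 in cortex, and without litter 4 it was 0.24 and -0.01.

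Neuropeptide and granin genes had 20 members tested, with 5 higher in neurons and 1 lower at an unadjusted p below 0.05, and 1 called, Sst. Their median difference was 0.09. Cck, the cholecystokinin gene, had a difference of 0.64 (FDR = 0.796) and stood at 10.6, 10.8 and 8.42 CPM in control neurons and 14.7, 15.49, 11.8 and 14.0 CPM in deleted ones, with no overlap, against 5.09 to 8.63 CPM in all cortices. Without replicate 1 of the Phf6-/Y cortices 3 members were higher and 0 lower, and the same counts were found without litter 4.

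Cajal-Retzius cell genes, markers of the earliest neurons of layer 1, had 13 members tested. Of these, 7 had a positive response at an unadjusted p below 0.05 in each preparation and 0 a negative one. Their median response was 0.46 in cortex and 0.47 in neurons. At an unadjusted p below 0.05, 3 had a higher response in neurons, Ndnf and Reln among them, and 2 a lower one, Zic1 and Cacna2d2. The summed level of the 14 genes on the list was 504 to 624 CPM in control cortices and 679 to 790 CPM in deleted ones, and 211 to 280 CPM in control cultures and 282 to 556 CPM in deleted ones. Neither pair of ranges overlapped, but in cultures the highest control, of litter 4, and the lowest deleted one, of litter 5, nearly met. The 556 CPM were those of litter 7, which held no control. Reln alone made up a large part of the sum. It averaged 241 CPM in control and 300 CPM in deleted cortices, and 98.9 CPM in control and 207 CPM in deleted cultures. The median difference of the group was 0.09, and it was 0.35 with 4 higher and 2 lower without replicate 1 of the Phf6-/Y cortices and -0.04 with 2 higher and 1 lower without litter 4.

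The Zic family of zinc finger transcription factors, used in the septum, the medial wall and the midline, had all 5 members tested with a lower response in neurons, 3 of them at an unadjusted p below 0.05 and 0 called. The family median was -0.78 for the difference, 0.72 in cortex and -0.10 in neurons. Zic4 stood at 56.8, 36.2 and 31.4 CPM in control cortices and at 85.7, 63.7, 64.2, 54.1 and 51.8 CPM in deleted ones. It rose there by 0.73 (FDR = 0.0157), and without replicate 1 of the Phf6-/Y cortices the response was 0.79 (FDR = 0.0709). In neurons Zic4 depended on the litter, at 19.6 CPM in the control of litter 4 and 3.67 and 0.916 CPM in the controls of litters 5 and 6, and at 17.6, 17.8, 2.03 and 2.01 CPM in the deleted cultures of litters 7, 4, 5 and 6. Its difference was -0.83 (standard error 0.229, FDR = 0.631). Zic1, at 83.3 to 155 CPM in control and 115 to 225 CPM in deleted cortices, had a difference of -0.78 (FDR = 0.631), and its cultures showed the same order of litters, with 83.6 to 93.4 CPM in those of litters 4 and 7 and 16.6 to 32.9 CPM in those of litters 5 and 6. The family median was -0.82 without replicate 1 of the Phf6-/Y cortices and -0.78 without litter 4, with 3 members lower at an unadjusted p below 0.05 in each case.

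Genes of the ganglionic eminences and of the interneurons that leave them split. Of 23 tested, 2 had a higher and 5 a lower response in neurons at an unadjusted p below 0.05, with Sst and Lhx8 called in opposite directions. Zfhx3 and Nkx2-1, the master regulator of the medial ganglionic eminence, were among the 5. Nkx2-1 stood at 71.9, 30.9 and 37.1 CPM in control cortices and 89.8, 49.4, 46.5, 45.2 and 39.1 CPM in deleted ones, but at 0.349 to 4.20 CPM in all cultures, and its difference was -0.67 (FDR = 0.866). Without litter 4 the difference of Nkx2-1 was -0.17, and its response in neurons turned from -0.29 to 0.22. The 23 genes summed to 1323 to 1643 CPM in control and 1379 to 1612 CPM in deleted cortices, and to 386 to 589 CPM in control and 463 to 619 CPM in deleted cultures, so their summed level overlapped between genotypes. The highest cortex values of Zic1, Zic4, Zfhx3, Nkx2-1 and Lhx8 within each genotype were those of litter 3, and in every neuron genotype those of litters 4 and 7 exceeded those of litters 5 and 6. The part of these litter differences in the responses was not tested.

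**Figure D4:**
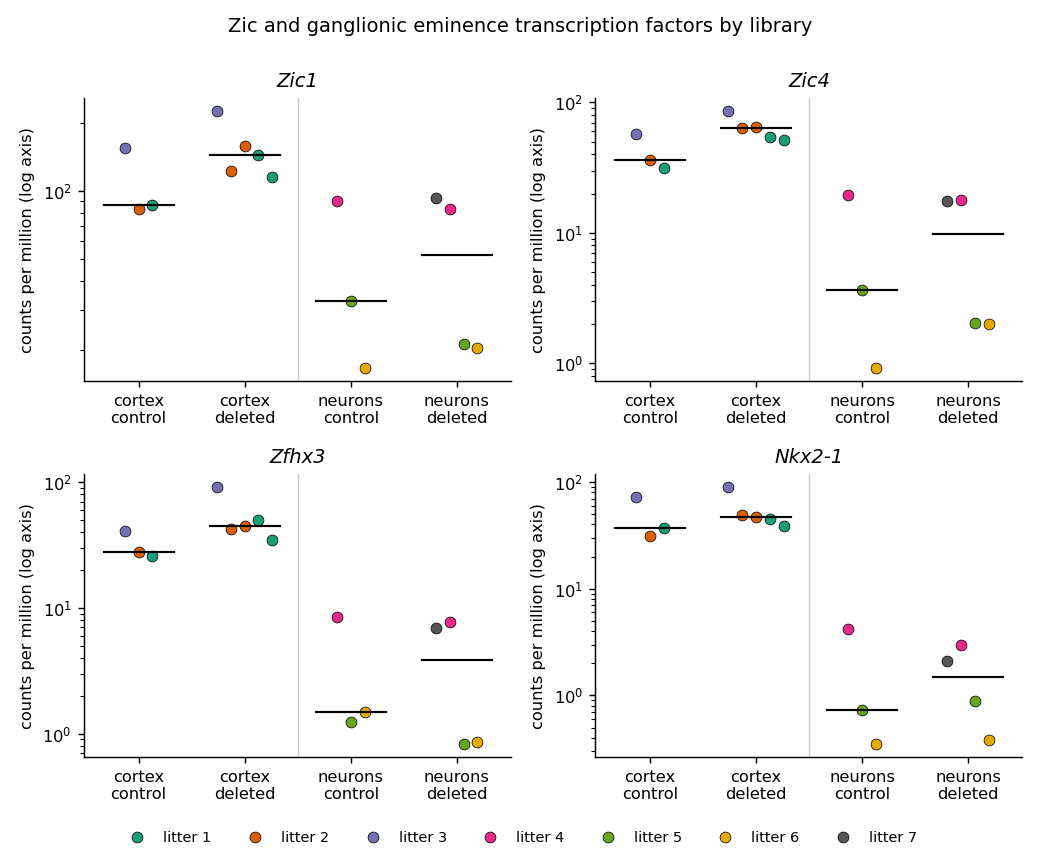
CPM (log axes) of Zic1, Zic4, Zfhx3 and Nkx2-1 in each library, coloured by litter, with a bar at the group median. Cultures of litters 4 and 7 lie above those of litters 5 and 6 for each gene, and litter 3 is highest among cortices of either genotype.

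Imprinted genes, which are expressed from 1 parental allele and include many regulators of growth, had 41 members tested. Their differences were negative in 31, with 9 lower in neurons and 0 higher at an unadjusted p below 0.05 and 0 called. The group median was -0.16 for the difference, 0.17 in cortex and 0.02 in neurons. Nap1l5, a neuronal nucleosome assembly protein gene, rose in cortex by 0.56 (FDR = 0.00712) and had a response of 0.01 in neurons (standard error 0.0923), a difference of -0.55 (95% interval -0.82 to -0.29, FDR = 0.397). Its cortex response was 0.54 (FDR = 0.0501) without replicate 1 of the Phf6-/Y cortices. It went from 32.3, 27.8 and 25.6 CPM to 49.7, 46.4, 42.8, 31.8 and 35.3 CPM in cortex, while cultures of either genotype held 33.7 to 43.2 CPM. Peg3, a zinc finger gene expressed from the paternal allele, rose in cortex by 0.57 (FDR = 0.00329) and had a response of 0.09 in neurons (FDR = 0.876), a difference of -0.48 (FDR = 0.516). Dlk1 and Rtl1, neighbours in the imprinted domain of chromosome 12 and named after their values had been seen, had differences of -1.70 (FDR = 0.693) and -1.92 (FDR = 0.693), with 0.0633 to 2.12 CPM of Dlk1 and 0.147 to 0.525 CPM of Rtl1 in cultures. In neurons Rtl1 reached the low-count filter through the control cultures, where it is higher (means of 0.459 CPM against 0.311 CPM), so its size is no independent support. With 1 library left out, Rtl1 was tested in only 12 fits. Peg10 and Zdbf2, described above, rose in both. Without replicate 1 of the Phf6-/Y cortices 8 members were lower and 0 higher, with a median of -0.09, and without litter 4, 5 and 0, with a median of -0.19.

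Ion channel and axon guidance genes moved in both directions. Of 30 voltage-gated sodium and calcium channel genes, 5 had a lower and 1 a higher response in neurons at an unadjusted p below 0.05. The T-type calcium channel gene Cacna1g had a difference of -0.49 (FDR = 0.467), from a response of 0.11 in cortex and -0.38 in neurons. Scn9a rose in cortex by 1.00 (FDR = 0.0223) and Cacna2d2 by 0.46 (FDR = 0.0430), with differences of -0.82 (FDR = 0.838) and -0.41 (FDR = 0.868), both named after their values had been seen. The cortex response of Scn9a was 0.85 (FDR = 0.203) without replicate 1 of the Phf6-/Y cortices, and without litter 4 the difference of Cacna2d2 was -0.26, with 3 of the group lower and 1 higher. Of 43 semaphorin, plexin, Slit, Robo and netrin genes, 5 were lower and 2 higher, which became 7 and 0 without replicate 1 of the Phf6-/Y cortices and 4 and 4 without litter 4. Plxnc1, a semaphorin receptor, rose in cortex by 0.40 (FDR = 0.0126), from 104 to 109 CPM in controls to 132 to 147 CPM in deleted samples, with a response near 0 in neurons (standard error 0.0825) and a difference of -0.41 (FDR = 0.573). The cortex response of Plxnc1 was 0.41 (FDR = 0.0704) without that library. Ntng1, a membrane-anchored netrin, had a difference of -1.36 (FDR = 0.693), and 33.3 CPM in replicate 1 of the Phf6-/Y cortices against 5.80 to 9.67 CPM in the other 7, and without it the difference of Ntng1 was -0.91. Robo3, a receptor of commissural axons, was named after its values had been seen. It rose in cortex by 1.11 (FDR = 0.0179), with a difference of -1.10 (FDR = 0.743). Cultures held little of it, with means of 1.38 CPM in controls and 1.37 CPM in deleted ones and a response of 0.007 (standard error 0.304). Replicate 1 of the Phf6-/Y cortices held 35.5 CPM of Robo3, against 4.42 to 12.5 CPM in the other 7 cortices. Without it the cortex response of Robo3 was 0.89 (FDR = 0.225). Among 51 potassium channel genes, 4 were higher and 3 lower (2 and 1 without that library, 2 and 3 without litter 4), led by Kcnh3 with a difference of 0.87 (FDR = 0.573), which was at 17.1 to 20.05 CPM in control neurons and 22.9 to 31.4 CPM in deleted ones, and at 8.70 CPM in replicate 1 of the Phf6-/Y cortices against 18.4 to 22.4 CPM in the other 7. Slc12a5, the chloride exporter that makes GABA inhibitory, rose in cortex by 0.55 (FDR = 0.0139) and had a response of 0.05 in neurons (FDR = 0.970), at 6.63 to 12.8 CPM there against 39.1 to 75.7 CPM in cortices, a difference of -0.51 (FDR = 0.703). Its cortex response without replicate 1 of the Phf6-/Y cortices was 0.52 (FDR = 0.0925).

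In genes of dividing cells and of translation 0 differences were called. Of 48 cell cycle and DNA replication genes 35 had a negative difference, 3 at an unadjusted p below 0.05, and the group median was -0.09. The median response of these genes was -0.07 in cortex and -0.13 in neurons. At an unadjusted p below 0.05, 3 of them rose and 8 fell in cortex, and 0 rose and 16 fell in neurons. Over all genes tested, 5.3% fell in cortex and 4.07% in neurons at that p. Mki67, a marker of cycling cells, had a difference of -0.37 (FDR = 0.503), from a response of 0.21 in cortex and -0.16 in neurons. Its sign in cortex was thus opposite to that of the group median. Of 81 cytosolic ribosomal protein genes 54 had a positive difference, 6 of them at an unadjusted p below 0.05, with a group median of 0.08, and 9 without litter 4. Rplp0 had 0.24 (FDR = 0.892), and for such genes reads shared with processed copies elsewhere in the genome make counts uncertain. The 13 mitochondrially encoded genes all had a negative difference, with a group median of -0.56 and 0 at an unadjusted p below 0.05. Their response in cortex had a median of 0.58. Upper-layer neuron genes had 3 of 18 higher in neurons, Lmo4 among them with 0.59 (FDR = 0.868), and 0 lower, which became 2 and 2 without replicate 1 of the Phf6-/Y cortices. Lmo4 was at 65.5 CPM there and at 115 to 136 CPM in the other 7 cortices, and without that library its difference was 0.36. Deep-layer genes held Nr4a2 on the higher side and Tle4, a corepressor of corticothalamic neurons, with -0.43 (FDR = 0.491), and Foxp2 with -0.77 (FDR = 0.631) on the lower side. Foxp2 was named after its values had been seen, and without litter 4 its difference was -1.19 (FDR = 0.0785). Hedgehog pathway genes had 1 of 12 higher and 3 lower, led by the coreceptor gene Boc, which fell in neurons by 0.58 (FDR = 0.00523) and had -0.21 in cortex (FDR = 0.236), a difference of -0.37 (FDR = 0.680).

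Several groups held 0 genes with a difference at an unadjusted p below 0.05. Among these were the 22 interferon-stimulated genes tested, with a median of 0.23, the 44 genes of synaptic vesicle release, the 24 glutamate receptor subunit genes, the 22 radial glia genes, the 13 intermediate progenitor genes, the 17 Notch pathway genes, the 26 genes of cholesterol synthesis and uptake and the 36 of RNA polymerase I and ribosome biogenesis, 29 of which had a positive difference with a median of 0.06. The synaptic vesicle and glutamate receptor genes had medians of 0.10 and 0.14 in cortex and 0.09 and 0.13 in neurons. The 8 choroid plexus genes tested had a median difference of 0.75, also with 0 at that p (2 higher and 0 lower without replicate 1 of the Phf6-/Y cortices), and the 18 on the list summed to 33 to 557 CPM across control and deleted cortices. Without litter 4, 3 of the radial glia genes and 2 of the interferon-stimulated genes were higher and 0 lower, the Notch and the synaptic vesicle genes held 1 each way and the cholesterol genes 1 lower. With replicate 1 of the Phf6-/Y cortices left out, the radial glia genes held 1 each way, and the intermediate progenitor, Notch and synaptic vesicle genes 1 lower each.

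**Figure D5:**
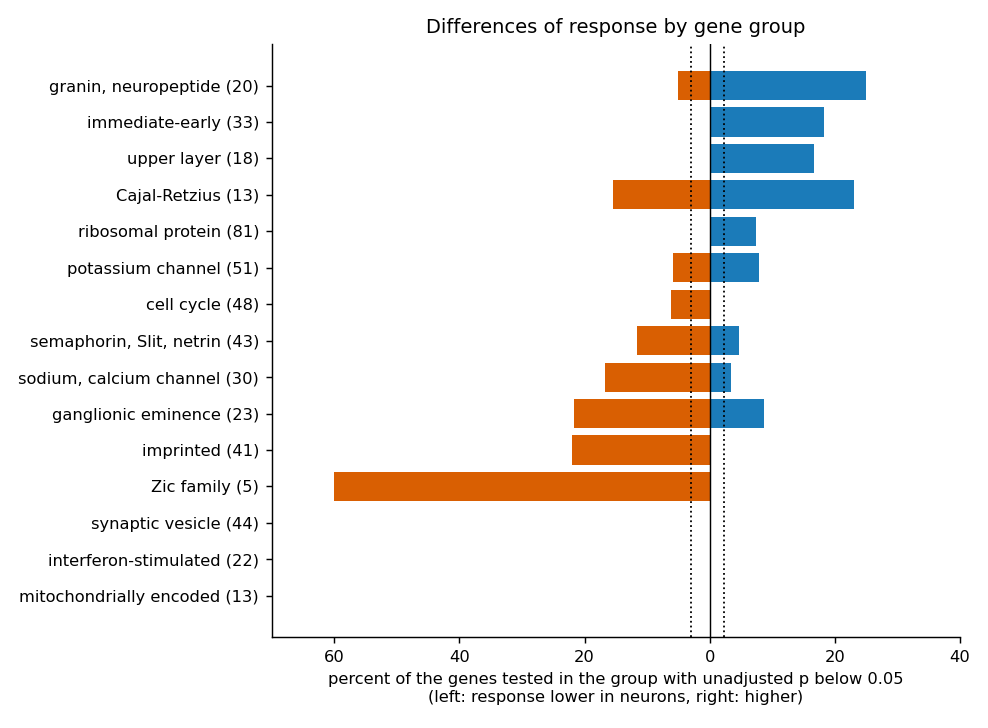
Percent of the tested genes of each group shown, with their number in brackets, whose response was higher in neurons (bars to the right) or lower (bars to the left) at an unadjusted p below 0.05, with dotted lines at the 2.27% and 2.98% of all genes. The groups are a selection of those examined. Others, such as the 12 Hedgehog pathway genes with 1 higher and 3 lower, are not drawn. The Zic family reaches 3 of 5 lower and the granin and neuropeptide genes 5 of 20 higher.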

How the data were processed

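RNA from 8 cortices and 7 cortical neuron cultures was sequenced as stranded, paired-end, poly(A)-selected libraries. The authors aligned reads to mm10 with the Rsubread aligner, summarised them with featureCounts against the RefSeq genes built into it, and deposited the counts without normalization. The submitters' processing notes also name bcl2fastq. The strand setting is not given in the sources used here. Rows without a gene identifier (1029, 0.349 to 0.605% of the reads of a library) were left out. Of 26150 identifiers, 875 had no match in the RefSeq annotation of GRCm38, and 835 pseudogenes, 35 genes of ribosomal RNA, 1273 predicted genes and 4 genes off the main chromosomes were removed, leaving 23128.

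From these counts, genes passing filterByExpr in each preparation (13729) were scaled by TMM and fitted with edgeR 4.0.16 (robust quasi-likelihood F test, R 4.3.3) over all 15 libraries, with 7 litter terms and a genotype term per preparation, which leaves 6 residual degrees of freedom. P-values were adjusted by Benjamini-Hochberg over all genes tested, and intervals are 95%. Litters are those named in the labels and methods, and control and deleted samples of a litter deviated together from their group means with correlations of 0.0929 to 0.283. Foetuses of 1 litter are taken as separate samples, and p-values measure the spread between these samples. Per-litter differences use log2 CPM with a prior count of 0.5. No pair of libraries agreed within counting noise. The script was tested on simulated data.

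The members, gene lists and tests were chosen with earlier results of these data known. Named were Phf6, all genes called for the difference, the 6 smallest p each way, the 8 smallest p of each response, the 2 smallest p of each list and a short list of genes shown by the study. Further names are marked as chosen after their values were seen. Alternatives used DESeq2 1.42.0 and limma 3.58.1, other scalings, filters and litter terms, and each library left out. A few single genes are left out of the text.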

Additional observations from a re-analysis of the deposited data

Results flagged for a closer look

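The responses of 4 genes differed between neurons and cortex by the test of the difference itself. The log2 differences were 1.17 for Sst, 0.74 for Nr4a2, -2.31 for Lhx8 and -1.29 for Onecut2.

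Over 27 named genes, 54 groups of 4 or 5 libraries were examined. In 7, the gap of a library to its nearest neighbour was a larger share of the group's range than Dixon's 95% criterion allows. Chance gives about 1 in 20 for independent groups, but these groups reuse the same libraries and most of their genes were named for a small p. All 7 were replicate 1 of the Phf6-/Y cortices, the library with the low Neurod6 level. It was the highest of its group for Onecut2 (36.9 CPM, next 15.3), Spon1 (43.6 CPM, next 25.9), Zfhx3 (91.4 CPM, next 50.3), Peg10 (525 CPM, next 318), Garem2 (68.3 CPM, next 53.6) and Zdbf2 (157 CPM, next 105). For Ccbe1 it was the lowest, with 3.82 CPM, next 8.81. Its control littermate was also the highest control cortex for Onecut2 (13.7 CPM), Spon1 (19.7 CPM), Zfhx3 (41 CPM), Peg10 (289 CPM), Garem2 (77.4 CPM) and Zdbf2 (77.8 CPM) and the lowest for Ccbe1 (6.89 CPM). Replicate 1 was the only deleted cortex of litter 3, whereas the others came in pairs from litters 1 and 2. The part of litter 3 in these values was not tested.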

How the results depend on the processing

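Of the 4 genes called for the difference of response (Sst, Nr4a2, Lhx8, Onecut2), none kept its call without a litter term, with litter as a random effect or with a replicate block in place of litter, and their direction held in each. With the replicate block the differences were 1.12 for Sst, 0.63 for Nr4a2, -1.07 for Lhx8 and -1.45 for Onecut2. Replicate numbers mark no shared litter across genotypes, whereas the labels give the litters. Calls higher and lower in neurons, 2 and 2 as reported, numbered 0 and 0 without a litter term, with random litter, with the replicate block and without litter 4 (an alternative chosen after seeing the data), 1 and 0 with a stricter low-count filter, 1 and 1 with limma-voom, 2 and 9 with DESeq2, and 1 higher with DESeq2 size factors or library totals. At an unadjusted p below 0.05 the 0 and 0 stood beside 236 and 265 without a litter term, 356 and 398 with random litter, 231 and 328 with the replicate block and 315 and 453 without litter 4. The hits in cortex (68 up, 16 down) became 185 and 64 with DESeq2, 0 and 1 without a litter term, 0 and 2 with random litter and 7 and 2 with the replicate block, and limma-trend gave 9 down. Those in neurons (21 up, 14 down) became 46 and 34 with DESeq2, 0 and 1 without a litter term, 7 and 6 with random litter, 1 and 1 with the replicate block and 1 and 1 without litter 4. The cause was not tested.

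With 1 library left out, calls ranged from 0 to 1 higher and 0 to 3 lower for the difference, 8 to 98 up and 3 to 24 down in cortex, and 1 to 28 up and 1 to 16 down in neurons. Nr4a2 lost its call without any 1 of the 15. Sst lost it without control cortex 2, control cultures 1 or 2, or deleted cultures 2 or 3. Lhx8 lost it without control cortices 2 or 3, deleted cortices 2, 3 or 4, control cultures 1 or 2, or deleted cultures 2 or 3. Onecut2 lost it without control cortices 1 or 2, deleted cortices 1, 2, 3 or 4, any control culture, or deleted cultures 2, 3 or 4. Among the genes that DESeq2 also called were Hap1, Spon1, Iqsec3, Zfhx3, Zic4 and AW551984, the last named after its values had been seen (-0.94, FDR = 0.0397). Hap1 was also called with no low-count filter (FDR = 0.0406), without control cortex 3 (FDR = 0.0227) and without deleted cortex 5 (FDR = 0.0124). AW551984 was also called without control culture 3 (FDR = 0.0143) and without deleted culture 4 (FDR = 0.0150).

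Small differences changed sign. With 1 library left out, that of Zdbf2 ranged from -0.20 to 0.031, Pgap1 from -0.078 to 0.032, Phf6 from -0.092 to 0.18, Ldhb from -0.017 to 0.14 and Rasgrf2 from -0.022 to 0.13. Without litter 4, Phf6 had -0.10, Ldhb -0.024 and Rasgrf2 -0.026. Without a litter term Atp1b1 had -0.0038 and Rasgrf2 -0.20, with random litter Rasgrf2 had -0.12, and with the replicate block Zic4 had 0.13, Atp1b1 -0.11 and Rasgrf2 -0.50.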
